A study of Mus musculus with 42 samples.

Results

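The 40 genes described here encode the machinery of cell division, from the G1 cyclins and their inhibitors through the DNA replication fork to the mitotic spindle. They were taken as a fixed list of gene symbols, each matched to 1 Ensembl identifier among the 54446 genes counted in mouse liver, and all 40 passed the filter on low counts that left 15574 genes for testing. By role they comprise 5 genes of G1 control, 7 of the replication fork, 4 of nucleotide supply, 9 mitotic cyclins and kinases, 3 of mitotic protein turnover and 12 of chromosomes and the spindle.

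Bulk RNA was sequenced from the snap-frozen livers of 42 female APOE*3-Leiden transgenic mice, 1 library per mouse. All mice carried the human APOE*3-Leiden transgene, whose promoter is not given in the sources used here. Chow mice (n = 10) stayed on a maintenance diet as a healthy reference, sampled like the others at week 32, WTD mice (n = 16) ate a Western-type diet with 1% cholesterol, and WTD+atorvastatin mice (n = 16) ate that diet with the statin mixed in. The WTD mice of both arms were 8 to 14 weeks old at the start, had a run-in of 3 weeks on the diet, were then matched on age, weight and plasma lipids, and were killed at week 32. The age of the Chow mice at the start is not given in the sources used here. The atorvastatin dose was 3.0 mg/kg/day and was raised to 4.5 mg/kg/day at week 5, and both arms received 0.05% sodium cholate from week 22. The WTD mice serve as 1 arm of both main comparisons, so those comparisons share samples.

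A cell enters the cycle when D-type cyclins with their kinases phosphorylate the retinoblastoma protein and release E2F factors, which switch on the genes for DNA synthesis. The MCM helicase is loaded on replication origins in G1 and opens the double helix in S phase, and a later wave of cyclin B, Polo and Aurora kinases drives mitosis. Adult hepatocytes are mostly quiescent but re-enter the cycle after loss or injury of tissue, and dividing immune, stromal and bile duct cells also contribute transcripts to a whole-liver sample. In bulk RNA, fewer cells of a type and less RNA per cell cannot be told apart.

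Totals ran from 15661381 to 36224054 counts per library, but libraries of similar totals differed in how many weak transcripts they held. For each library the share of genes without any count was taken among those with a group mean of 1 to 2 CPM. CPM are counts scaled to library size, here the plain total and in all results below the normalised size. The share of genes without a count had a median of 3.65% over the 42 libraries and reached 57.3%. In 9 libraries it was above 20%, namely Chow mice AZ2, AZ5 and AZ6, WTD mice Gen10, Gen11, Gen13, Gen20 and Gen21, and WTD+atorvastatin mouse Gen29. These are called libraries of poor capture, and values without them are given beside the results they move. Of the 39 zero counts among the 1680 member values, 35 lay in these 9 libraries. In the other 33 libraries 37 of the 40 members had a count in every mouse.

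**Figure D1:**
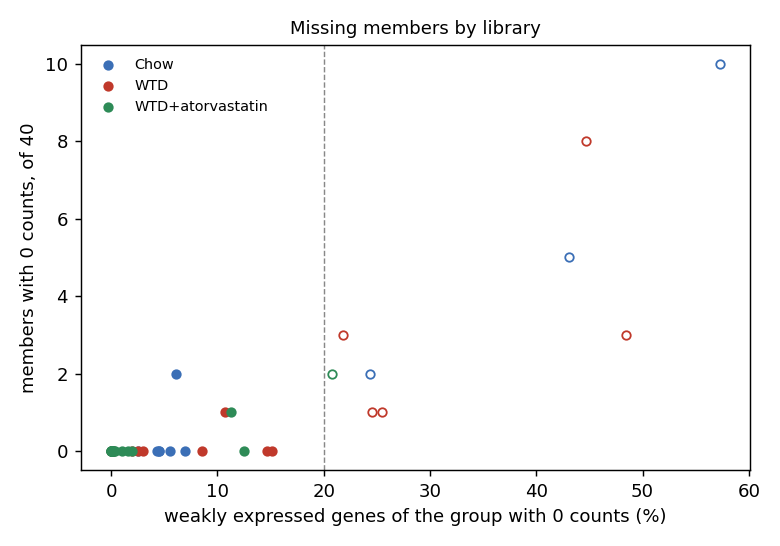
Each point is 1 library, with the percentage of weakly expressed genes of its group that had 0 counts on the x axis and the number of the 40 members with 0 counts on the y axis. Open circles right of the dashed line at 20% are the 9 libraries of poor capture, where up to 10 members were missing, against at most 2 in any other library.

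The members differed widely in level. Per kilobase of exon, Ccnd1, Pcna and Tk1 were the most abundant in Chow mice, with median levels of 19.4, 15.1 and 11.5 CPM per kb, and no other member exceeded 4.60 CPM per kb. The mitotic genes lay between 0.123 CPM per kb for Cenpf, a kinetochore protein, and 4.35 CPM per kb for Cdc20, the activator of the anaphase-promoting complex. The weakest members were missing in some mice. Ccne1, the cyclin E that acts at the G1/S boundary, had 0 counts in 4 Chow, 3 WTD and 1 WTD+atorvastatin mice, and its paralog Ccne2 in 4, 1 and 0 mice. The checkpoint kinase gene Bub1 had 0 counts in 2 Chow, 2 WTD and 1 WTD+atorvastatin mice.

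**Figure D2:**
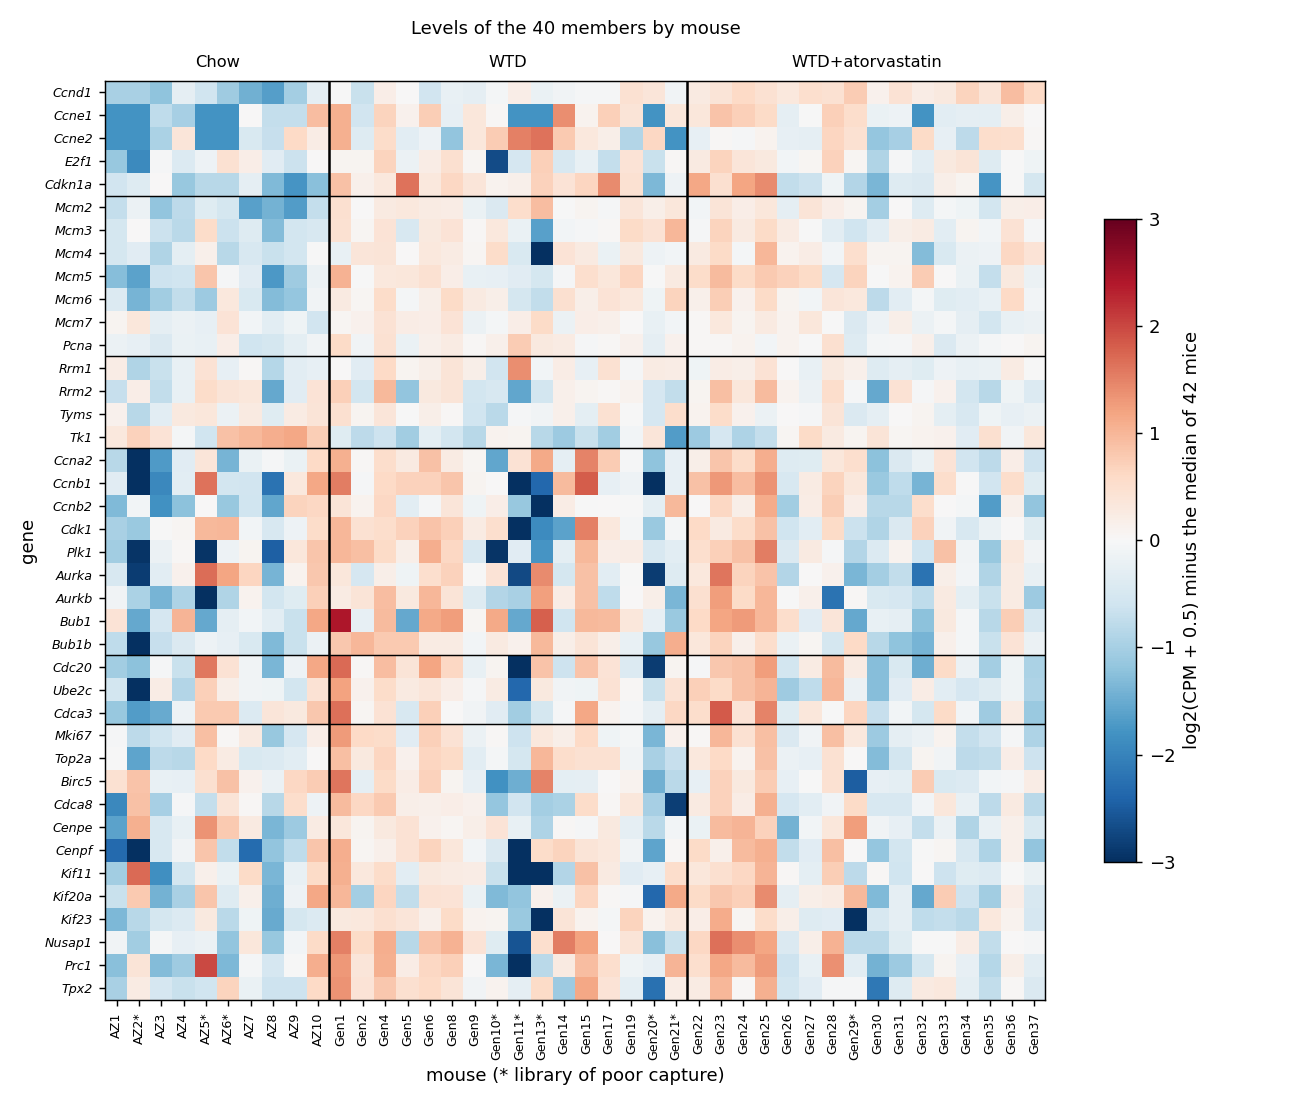
Each row is 1 of the 40 members and each column 1 mouse, and the colour gives log2(CPM + 0.5) minus the median of the 42 mice, cut off at 3 in either direction. Rows are ordered by role and mice by group, and asterisks mark libraries of poor capture. Ccnd1 and Tk1 differ between Chow and WTD mice in opposite directions, while the mitotic rows vary mainly from mouse to mouse within each group.

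The promoters of the members were compared with all mouse promoters because the mitotic and replication genes are known to be switched on by different factors. RefSeq promoter windows of GRCm38.p6, from 250 bases before to 50 bases after the gene start, were at hand for 33 of the 40 members, and those of Ccnd1, Ccne2, Mcm4, Ccna2, Aurkb, Kif20a and Tpx2 were not used. The cell cycle homology region (CHR, here TTTGAA or TTCGAA on either strand) was present in 16 of 20 mitotic, turnover and spindle members and in 2 of 10 replication and nucleotide members, against 21.7% of 27025 genes with a promoter. The E2F element was searched on either strand as TTCCCGC and in the spellings with letters TTGGCGC, with letters TTCGCGC and with letters TTGCCGC. It was present in 3 of 20 mitotic, turnover and spindle members and in 6 of 10 replication and nucleotide members, against 10.9% of all genes. The CCAAT box, on either strand, was found in 18 of 20 and 8 of 10, against 41.1%. Matches were counted where they overlap, as do pairs of E2F elements on opposite strands in Mcm5 and Mcm6 and an E2F element and a CCAAT box in Ccnb1. None of the 3 motifs was found in the windows of Ccne1, E2f1, Cdkn1a, Tk1, Tyms, Birc5 or Nusap1.

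The stretches below, each 200 bases from 180 before to 20 past the RefSeq gene start and written 5′ to 3′ on the gene's strand, show these arrangements, with CHR, CCAAT and E2F motifs in capitals. Cdk1 (the mitotic kinase, chr10:69352893-69353092, minus strand) holds all 3 motifs, Ccnb2 (cyclin B2, chr9:70421535-70421734, minus strand) holds 3 CCAAT boxes between 2 CHRs, and Plk1 (Polo-like kinase 1, chr7:122159255-122159454, plus strand) holds 1 CCAAT box, its CHR lying 30 bases past the start and outside the stretch shown. Mcm5 (chr8:75109329-75109528, plus strand) and Mcm6 (chr1:128359686-128359885, minus strand), 2 subunits of the replicative helicase, hold overlapping E2F elements and CCAAT boxes but no CHR, and Ccne1 (chr7:38107471-38107670, minus strand) is shown as a member with none. A match here is a description of letters and not evidence of binding.
Cdk1: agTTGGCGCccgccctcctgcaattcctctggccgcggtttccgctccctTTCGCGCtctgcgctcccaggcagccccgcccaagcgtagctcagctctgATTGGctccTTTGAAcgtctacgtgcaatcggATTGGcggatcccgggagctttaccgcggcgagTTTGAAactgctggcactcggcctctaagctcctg
Ccnb2: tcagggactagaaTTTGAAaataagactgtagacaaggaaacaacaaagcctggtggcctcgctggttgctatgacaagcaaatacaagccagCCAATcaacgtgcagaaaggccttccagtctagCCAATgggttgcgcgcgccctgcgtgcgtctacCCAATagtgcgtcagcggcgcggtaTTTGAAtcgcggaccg
Plk1: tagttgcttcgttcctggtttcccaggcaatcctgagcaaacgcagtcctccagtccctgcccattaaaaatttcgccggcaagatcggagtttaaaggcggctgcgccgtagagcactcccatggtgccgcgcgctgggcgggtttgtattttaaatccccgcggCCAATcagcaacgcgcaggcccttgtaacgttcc
Mcm5: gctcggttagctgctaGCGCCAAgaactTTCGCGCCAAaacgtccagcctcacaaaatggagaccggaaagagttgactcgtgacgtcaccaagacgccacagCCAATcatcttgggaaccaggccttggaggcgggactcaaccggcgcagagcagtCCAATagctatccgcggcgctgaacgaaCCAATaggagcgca
Mcm6: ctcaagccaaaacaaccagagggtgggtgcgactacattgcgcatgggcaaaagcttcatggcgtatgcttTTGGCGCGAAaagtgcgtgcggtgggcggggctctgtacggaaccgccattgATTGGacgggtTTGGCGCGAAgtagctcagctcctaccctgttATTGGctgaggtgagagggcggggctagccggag
Ccne1: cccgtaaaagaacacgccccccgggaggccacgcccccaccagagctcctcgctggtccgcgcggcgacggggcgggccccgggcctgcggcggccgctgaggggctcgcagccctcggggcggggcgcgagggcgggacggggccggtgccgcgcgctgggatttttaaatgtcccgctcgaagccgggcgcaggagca

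The WTD and Chow groups were compared first, which asks how the diet-fed livers differed from healthy ones. In WTD mice 8 members were higher and 1 was lower than in Chow mice at an adjusted p under 0.01 (edgeR's quasi-likelihood test, Benjamini-Hochberg adjustment over all tested genes, as for every adjusted p below). The 9 calls are 22.5% of the members, beside 33.5% of all tested genes, so the members were not called more often than the background. By direction, 20% of members were called higher, beside 17.5% of all genes, and 2.5% were called lower, beside 16% of all genes. No member had CPM ranges that did not overlap between the groups, beside 5.83% of all tested genes. The calls were uneven over the roles, with 5 of 7 replication fork genes called higher, 2 of 5 G1 genes higher, 1 of 4 nucleotide genes lower and 1 of 24 mitotic, turnover and spindle genes higher. The median log2 fold change was 0.61 over the replication fork genes and 0.38 over the 24 mitotic genes, beside 0.03 over all tested genes.

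Ccnd1 (chr7:144929931-144939925), the cyclin D1 that couples growth signals to G1 progression, was the most abundant member. Its level in Chow mice had a lowest value of 58.3, a median of 91.3 and a highest value of 153 CPM. In WTD mice the corresponding levels were 114, 178 and 252 CPM. The groups overlapped, but 13 of 16 WTD mice lay above every Chow mouse, and the log2 fold change was 0.85 ± 0.12 (SE; edgeR adjusted p = 1.3e-07). Of its exon length 23.4% overlaps the opposite-strand gene LTO1, and whether the counting used strand is not given in the sources used here. The same limit holds for Kif20a (29.3% of its exon length), Ube2c (22.8%), Ccne2 (17.4%), Ccna2 (12.5%), Prc1 (11.1%) and 7 members with under 9%.

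Cdkn1a (chr17:29090976-29100727) encodes p21, an inhibitor of cyclin-dependent kinases and a classical target of p53. Its levels were 6.61, 13.2 and 23.9 CPM (lowest, median and highest) in Chow mice and 9.00, 31.3 and 75.0 CPM in WTD mice. In all, 14 of 16 WTD mice lay above the highest Chow mouse, and the log2 fold change was 1.33 ± 0.31 (edgeR adjusted p = 0.00056). The remaining G1 genes were not called. Ccne1 had medians of 0.455 and 1.56 CPM in Chow and WTD mice and a log2 fold change of 1.33 with a 95% interval from -0.16 to 2.82, and Ccne2 had 1.37 with an interval from 0.04 to 2.70 (edgeR adjusted p = 0.15 and 0.088). Without the libraries of poor capture the Ccne2 log2 fold change was 0.50 ± 0.53 (edgeR adjusted p = 0.47). E2f1, which encodes an activating E2F factor, had medians of 5.60 and 7.01 CPM and a log2 fold change of 0.28 ± 0.26 (edgeR adjusted p = 0.42).

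The replication fork genes encode the 6 subunits of the MCM helicase and PCNA, the sliding clamp that holds DNA polymerase on its template. Mcm2 (chr6:88883474-88898780) showed the largest difference among them. Its levels were 2.91, 6.00 and 9.20 CPM (lowest, median and highest) in Chow mice and 7.52, 12.3 and 20.1 CPM in WTD mice. Of the 16 WTD mice 14 lay above every Chow mouse, and the log2 fold change was 1.14 ± 0.18 (edgeR adjusted p = 7.2e-07).

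Mcm6 (chr1:128331590-128359664) had levels of 6.00, 8.82 and 20.8 CPM in Chow and 9.89, 19.6 and 27.0 CPM in WTD mice, so that the ranges overlapped although all 16 WTD mice exceeded the Chow median. Its log2 fold change was 0.88 ± 0.18 (edgeR adjusted p = 5.9e-05). Pcna (chr2:132249162-132253314) differed less in size, with medians of 36.2 and 46.9 CPM and a log2 fold change of 0.44 ± 0.10 (edgeR adjusted p = 0.00029). The annotation also holds the processed copies Pcna-ps1 and Pcna-ps2, with which reads could be shared. Mcm3 and Mcm5 rose by log2 fold changes of 0.61 ± 0.19 and 0.74 ± 0.24 (edgeR adjusted p = 0.0065 and 0.0093), values close to the threshold.

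Mcm4 and Mcm7 were not called in all 42 libraries, with log2 fold changes of 0.51 ± 0.26 and 0.21 ± 0.11 (edgeR adjusted p = 0.12 and 0.13). Without the libraries of poor capture both were, at 0.70 ± 0.21 and 0.35 ± 0.11 (edgeR adjusted p = 0.0041 and 0.0086), so that all 7 fork genes were then higher in WTD mice. Mcm4 had 8.15 CPM at the WTD median but 0.157 CPM in the poorly captured library Gen13, and leaving out that mouse alone gave a call (log2 fold change 0.60, edgeR adjusted p = 0.0084).

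The calls of Mcm3 and Mcm5 each depended on single mice. Mcm3 lost its call without any 1 of 9 mice (AZ1, AZ3, AZ4, AZ6, AZ8, AZ9, AZ10, Gen19 or Gen21), with edgeR adjusted p from 0.011 to 0.019. Mcm5 lost its call without any 1 of 23 mice (AZ1, AZ2, AZ3, AZ4, AZ7, AZ8, AZ9, Gen1, Gen4, Gen5, Gen6, Gen8, Gen15, Gen17, Gen19, Gen21, Gen22, Gen24, Gen26, Gen27, Gen31, Gen33 or Gen36), with edgeR adjusted p from 0.010 to 0.025. Without all the libraries of poor capture both were called, at 0.87 ± 0.16 and 1.19 ± 0.23 (edgeR adjusted p = 1.0e-05 and 3.9e-05). In Chow mice the highest Mcm5 level, 14.7 CPM, lay in the poorly captured library AZ5.

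**Figure D3:**
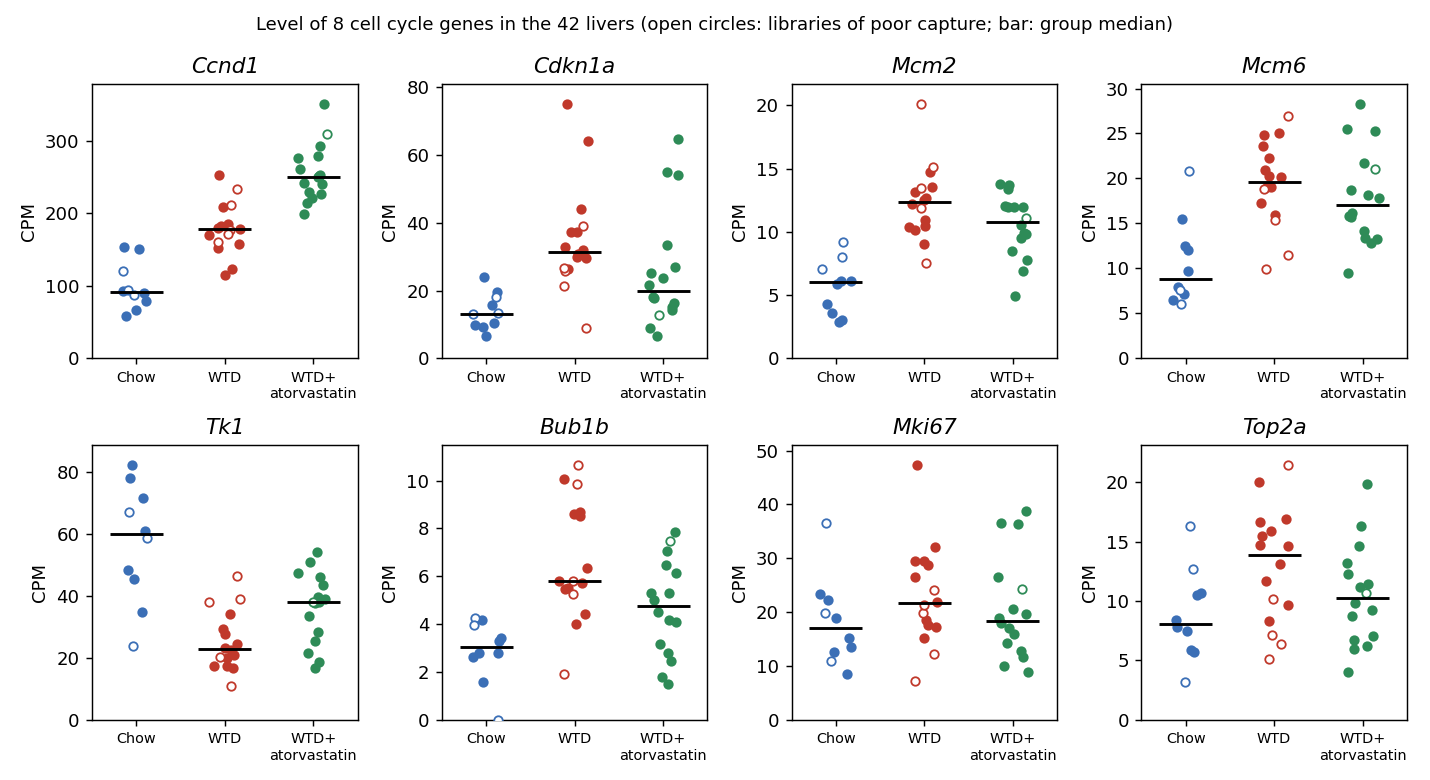
Each panel shows the CPM of 1 gene in the 42 mice by group, with 1 point per mouse, open circles for libraries of poor capture and a bar at the group median. Ccnd1 steps up from Chow to WTD to WTD+atorvastatin, Cdkn1a, Mcm2, Mcm6 and Bub1b are higher in WTD than in Chow mice, Tk1 is lower, and Mki67 and Top2a overlap widely between the groups.

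Among the nucleotide genes, Tk1 (chr11:117815526-117826092), the thymidine kinase of the salvage pathway, moved against the fork genes. Its levels were 23.9, 59.9 and 82.3 CPM in Chow and 11.0, 22.9 and 46.5 CPM in WTD mice. No WTD mouse reached the Chow median, 9 of 16 lay below every Chow mouse, and the log2 fold change was -1.16 ± 0.20 (edgeR adjusted p = 4.8e-06). Rrm1, the large subunit of ribonucleotide reductase, had medians of 14.0 and 18.9 CPM and a log2 fold change of 0.47 ± 0.16 that missed the threshold (edgeR adjusted p = 0.015). It passed with DESeq2, limma-voom and RLE scaling (adjusted p = 0.0068, 0.0014 and 0.0091) and without AZ1, AZ5, Gen2 or Gen10, each left out alone, with edgeR adjusted p from 0.0034 to 0.0096. The small subunit gene Rrm2 and the thymidylate synthase gene Tyms had log2 fold changes of -0.03 and -0.01, with 95% intervals from -0.53 to 0.48 and from -0.34 to 0.33. For Tyms a processed copy, Tyms-ps, is annotated.

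Of the 24 mitotic, turnover and spindle genes, Bub1b alone was called in all 42 libraries. Bub1b (chr2:118598211-118641591) encodes BubR1, which holds back anaphase until chromosomes are attached. Its levels were 0, 3.06 and 4.25 CPM in Chow and 1.90, 5.79 and 10.6 CPM in WTD mice, the zero lying in the poorly captured library AZ2. The groups overlapped, with 14 of 16 WTD mice above the highest Chow mouse and a log2 fold change of 1.20 ± 0.33 (edgeR adjusted p = 0.0027).

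Mki67 (chr7:135689784-135716361), which encodes the proliferation antigen Ki-67, had levels of 8.45, 17.1 and 36.5 CPM in Chow, 7.14, 21.6 and 47.3 CPM in WTD and 8.85, 18.4 and 38.8 CPM in WTD+atorvastatin mice. The ranges overlapped almost completely, and the log2 fold change of WTD against Chow was 0.34 ± 0.25 with a 95% interval from -0.16 to 0.84 (edgeR adjusted p = 0.27). The overlap was smaller without the libraries of poor capture, with 8.45 to 23.4 CPM in Chow mice and 15.1 to 47.3 CPM in WTD mice, whose median of 26.5 CPM lay above every Chow mouse. The log2 fold change was then 0.66 ± 0.28 and still missed the threshold (edgeR adjusted p = 0.055). Top2a (chr11:98992943-99024189), the topoisomerase that untangles sister chromatids, had medians of 8.09, 13.9 and 10.3 CPM, and its log2 fold change of 0.55 ± 0.23 missed the threshold (edgeR adjusted p = 0.051).

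The cyclin and kinase genes were weak throughout. Cdk1, the kinase that triggers mitosis, had levels of 2.24, 5.18 and 11.1 CPM in Chow, 0, 7.21 and 16.3 CPM in WTD and 2.66, 4.77 and 10.3 CPM in WTD+atorvastatin mice. The WTD zeros of Cdk1 and of Cdc20 lie in the poorly captured library Gen11, and the lowest WTD values in libraries of good capture were 1.43 and 5.66 CPM. The activating cyclins Ccnb1 and Ccnb2 had medians of 2.80, 4.08 and 4.98 CPM and of 2.93, 5.68 and 6.03 CPM, although reads of both could be shared with annotated pseudogenes. Without the libraries of poor capture these medians were 3.04, 6.65 and 4.81 CPM and 2.13, 5.70 and 5.75 CPM, so that Ccnb1 was then highest in WTD mice. Plk1, which promotes mitotic entry and spindle assembly, had 2.93, 3.89 and 3.44 CPM, and Aurkb, the Aurora kinase of the chromosomal passenger complex, had 1.90, 4.15 and 3.47 CPM. Without the libraries of poor capture the medians were 3.46, 5.20 and 3.63 CPM for Plk1 and 2.58, 4.33 and 3.39 CPM for Aurkb. In each of these the groups overlapped and no comparison was called.

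The turnover genes overlapped as widely. Cdc20 had levels of 3.18, 8.13 and 27.5 CPM in Chow and 0, 10.7 and 30.1 CPM in WTD mice, with a log2 fold change of 0.21 ± 0.45 (edgeR adjusted p = 0.74). Ube2c, the ubiquitin-conjugating enzyme of the anaphase-promoting complex, stood at 0.36 ± 0.38 and Cdca3, which triggers mitotic entry, at 0.23 ± 0.33 (edgeR adjusted p = 0.47 and 0.61). Among the spindle genes, Birc5, which encodes the passenger protein survivin, had medians of 5.84, 3.74 and 3.89 CPM and a log2 fold change of -0.25 ± 0.34 (edgeR adjusted p = 0.59). Without the libraries of poor capture the Birc5 medians were 4.50, 4.33 and 3.97 CPM and the log2 fold change lay above 0. Tpx2, an activator of Aurora A on the spindle, had medians of 4.09, 8.35 and 6.05 CPM and stood at 0.54 ± 0.30 (edgeR adjusted p = 0.15). Cdca8 had medians of 3.66, 4.37 and 3.63 CPM and stood at 0.12 ± 0.36 (edgeR adjusted p = 0.82). Cenpe had medians of 3.10, 3.23 and 2.71 CPM and stood at -0.19 ± 0.35 (edgeR adjusted p = 0.70). Without the libraries of poor capture the Cenpe log2 fold change lay above 0.

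The uncalled mitotic, turnover and spindle members had log2 fold changes between -0.29 for the Aurora kinase A gene Aurka and 0.99 for Bub1. Their intervals were wide: over the 31 uncalled members of every role the median half-width of the 95% interval was 0.74 on the log2 scale, and for 17 of them it reached a log2 fold change of 1. Differences of that size were therefore not excluded for those 17 members. Ccna2, the cyclin of S and G2 phase, and Kif23, a kinesin of the cleavage furrow, stood at 0.85 ± 0.37 and 0.77 ± 0.41 (edgeR adjusted p = 0.055 and 0.13).

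Without the 9 libraries of poor capture, WTD and Chow mice (11 and 7) differed in 13 members, 12 higher and 1 lower, which is 32.5% beside 37.2% of all genes tested in that fit. The additions were Mcm4, Mcm7, Top2a and Kif23, the last 2 with log2 fold changes of 0.82 ± 0.23 and 1.06 ± 0.26 (edgeR adjusted p = 0.0025 and 0.00075). All 24 mitotic, turnover and spindle genes then had a log2 fold change above 0, 3 of them called, with a median of 0.71 beside 0.00 over all tested genes. With all libraries it had been 20 of 24, beside 51.7% of all tested genes. The members are correlated with each other across mice, so these counts of signs are not independent observations.

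**Figure D4:**
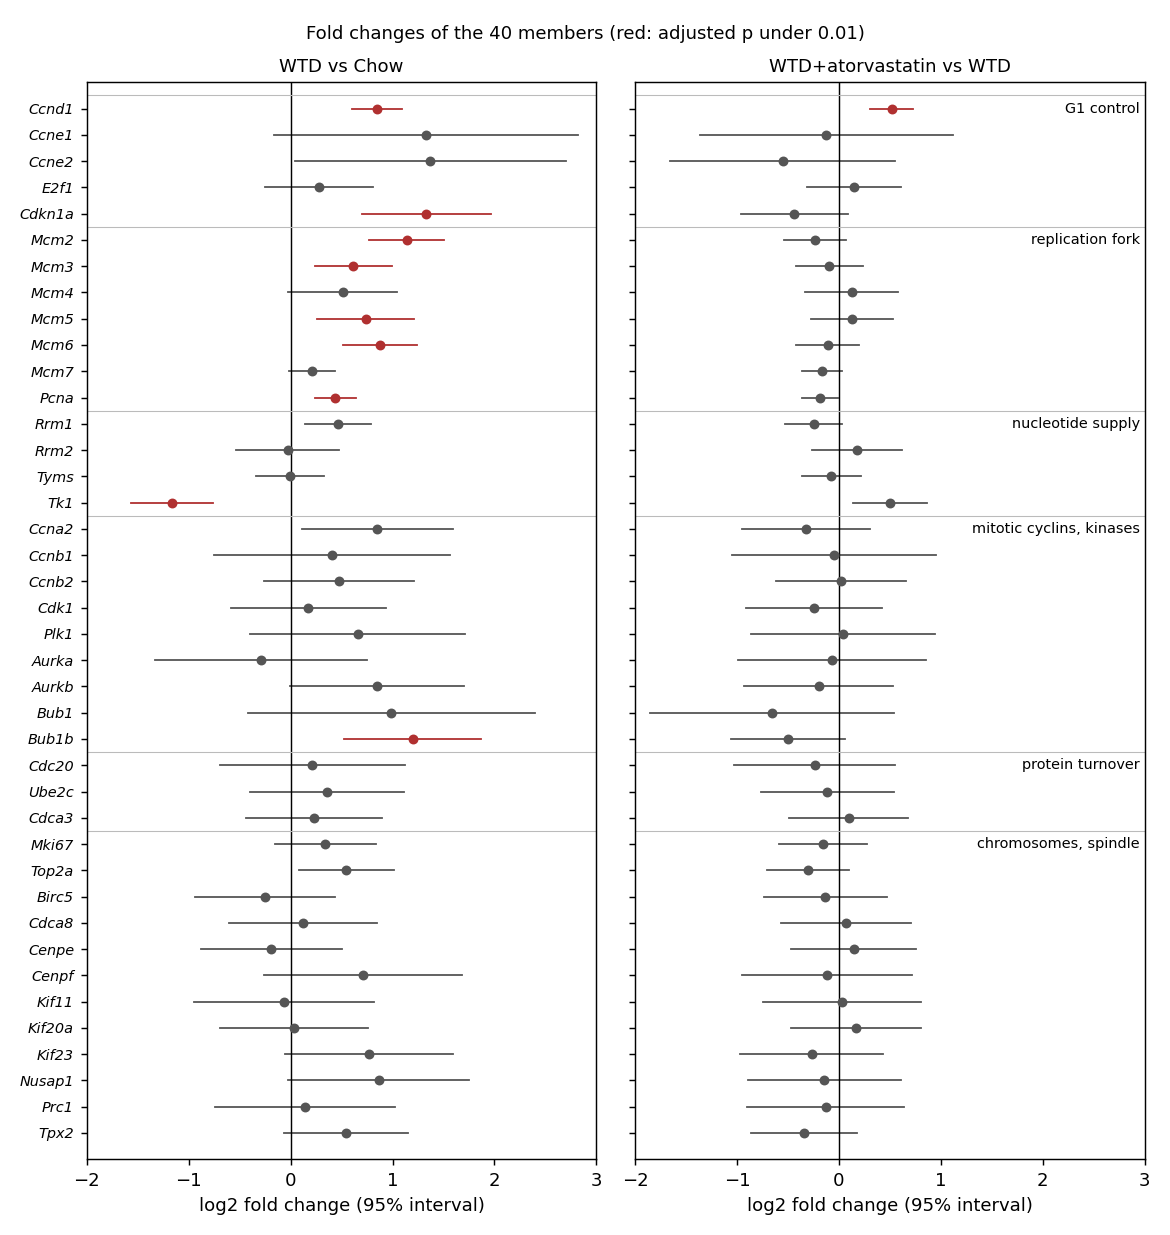
Points are log2 fold changes of the 40 members from the fit of all 42 libraries and lines their 95% intervals, for WTD against Chow on the left and WTD+atorvastatin against WTD on the right, in order of role. Red marks an adjusted p under 0.01. On the left 9 members are red, 5 of them replication fork genes, and on the right Ccnd1 is the only one.

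The second comparison asks what the statin changed in diet-fed livers. In WTD+atorvastatin mice 1 of 40 members, Ccnd1, differed from WTD mice, which is 2.5% beside 7.1% of all tested genes, so again the members were not called more often than the background. By direction it was 1 higher, beside 4.84% of all genes, and 0 lower, beside 2.26%, and no member had ranges that did not overlap, beside 0.00642%. Ccnd1 was higher, with levels of 199.5, 250.2 and 351 CPM against 114, 178 and 252 CPM in WTD mice. All 16 treated mice exceeded the WTD median and 7 exceeded every WTD mouse, and the log2 fold change was 0.52 ± 0.11 (edgeR adjusted p = 0.00048). Cdk4, the kinase partner of cyclin D1 and not a member, was lower in the treated mice by a log2 fold change of -0.27 ± 0.07 (edgeR adjusted p = 0.0048), after medians of 40.6, 52.7 and 44.3 CPM in Chow, WTD and WTD+atorvastatin mice. Without the libraries of poor capture Cdk4 was not called in this comparison.

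Tk1 had levels of 16.7, 38.1 and 54.1 CPM in treated mice against 11.0, 22.9 and 46.5 CPM in WTD mice. The ranges overlapped, 13 of 16 treated mice exceeded the WTD median, and the log2 fold change of 0.50 ± 0.18 missed the threshold (edgeR adjusted p = 0.055). It passed without the libraries of poor capture, at 0.64 ± 0.18 (edgeR adjusted p = 0.0087), and under limma-voom with sample quality weights (adjusted p = 0.0057). Cdkn1a had levels of 6.67, 19.8 and 64.6 CPM in treated mice. Its log2 fold change against WTD was -0.44 ± 0.26 with a 95% interval from -0.96 to 0.09 (edgeR adjusted p = 0.32). Over the 8 alternative models it lay between -0.69 and -0.43, and none of them called it. The lowest, -0.69 ± 0.22, came from limma-voom with sample quality weights (adjusted p = 0.013). The 4 highest treated values, 33.3 to 64.6 CPM, came from Gen22 to Gen25. The TMM scaling factors of these libraries were 1.05 to 1.11, against 0.890 to 0.980 in 10 of the other 12 treated libraries and 0.915 to 1.22 in WTD mice. Treated mice Gen28 and Gen36 had factors of 1.09 and 1.02, with Cdkn1a at 21.6 and 23.8 CPM. The part of the scaling factors in the Cdkn1a values was not tested.

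For the fork genes the log2 fold changes under atorvastatin lay between -0.24 and 0.13 and for the mitotic, turnover and spindle genes between -0.65 and 0.17, with no edgeR adjusted p below 0.16 and 0.27. At an unadjusted p under 0.05 in edgeR, 3 of the 40 members passed, a count whose share over all tested genes is not given here. DESeq2 called 1 member, 2.5%, beside 9.57% of all genes to which it gave an adjusted p. Mki67 had -0.15 ± 0.21, with a 95% interval from -0.59 to 0.28 (-0.33 ± 0.23 without the libraries of poor capture, edgeR adjusted p = 0.35), and Top2a -0.31 ± 0.20, with one from -0.71 to 0.10 (edgeR adjusted p = 0.74 and 0.38). The median over the 24 mitotic genes was -0.13 beside 0.00 over all tested genes, and 7 of 24 had a log2 fold change above 0. Without the libraries of poor capture none of the 24 did, with a median of -0.34 and none called. In this comparison the WTD mice are those of the first, so the opposite signs of the 2 sets of values are not independent.

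Against Chow mice, WTD+atorvastatin mice differed in 5 members, 4 higher and 1 lower, which is 12.5% beside 25% of all tested genes. Ccnd1 was the only member of the 40 whose CPM ranges did not overlap in this comparison, with 199.5 CPM as the lowest treated value and 153 CPM as the highest Chow value. That is 2.5% of members, beside 4.37% of all tested genes. Its log2 fold change was 1.37 ± 0.13 (edgeR adjusted p = 2.1e-12). Mcm2, Mcm5 and Mcm6 were higher by 0.90 ± 0.18, 0.87 ± 0.24 and 0.77 ± 0.18 (edgeR adjusted p = 6.7e-05, 0.0031 and 0.00054), although Mcm5 lost its call with only the 2 groups compared in the fit (edgeR adjusted p = 0.010), and Tk1 was lower, at -0.66 ± 0.20 (edgeR adjusted p = 0.0081). Tk1 lost its call without any 1 of 12 mice (AZ2, AZ6, AZ7, AZ8, AZ9, AZ10, Gen22, Gen23, Gen24, Gen25, Gen34 or Gen36), with edgeR adjusted p from 0.011 to 0.023. Cdkn1a had 0.89 ± 0.31 (edgeR adjusted p = 0.021), and 0.96 without Gen35 (edgeR adjusted p = 0.0097). Without the libraries of poor capture 8 members were called, the additions being Mcm3, Mcm4 and Pcna, which is 20% beside 29% of all genes tested in that fit. Leaving out AZ5 alone added Mcm3 (log2 fold change 0.69, edgeR adjusted p = 0.0024) and leaving out Gen13 alone added Mcm4 (0.64, edgeR adjusted p = 0.0061).

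The other genes of these pathways were taken from textbook lists. Their counts in WTD against Chow mice stand beside 17.5% of all tested genes higher and 16% lower, and those under atorvastatin beside 7.1% called. The WTD against Chow counts without the libraries of poor capture stand beside 37.2% of all genes tested in that fit, called in either direction. In WTD against Chow mice, 2 of 22 tested further replication genes were higher and 1 lower. The higher ones were Lig1, the DNA ligase of the lagging strand, and Fen1, the flap endonuclease, with log2 fold changes of 0.90 ± 0.19 and 1.11 ± 0.31 (edgeR adjusted p = 0.00013 and 0.0033). The lower one was Mcm10, a replication initiation factor, at -1.60 ± 0.29 (edgeR adjusted p = 1.3e-05). Its medians of 34.3, 10.2 and 21.9 CPM in Chow, WTD and WTD+atorvastatin mice are in the same order as those of Tk1, and its log2 fold change under atorvastatin of 0.89 ± 0.26 missed the threshold (edgeR adjusted p = 0.017). Without the libraries of poor capture 3 of 23 tested further replication genes were higher and 2 were lower in WTD than in Chow mice. Cdt1, the MCM loading factor, was listed with 0 counts in all mice.

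Of 31 further mitosis genes, Tacc3, a spindle protein, was higher in WTD than in Chow mice at 0.95 ± 0.29 (edgeR adjusted p = 0.0055). Cks2, a small subunit of cyclin-dependent kinases, and Pttg1, which encodes securin, were lower at -0.71 ± 0.12 and -0.56 ± 0.12 (edgeR adjusted p = 4.8e-06 and 0.00014). Without the libraries of poor capture 4 of the 31 were higher and 2 were lower. The median log2 fold change over the 31 was then 0.56, against 0.28 with all libraries. None of the 31 was called under atorvastatin. Of 19 further G1 genes 5 were higher in WTD mice, led by Cdk4 at 0.43 ± 0.08, the pocket protein gene Rbl1 at 1.52 ± 0.30 and the cyclin D2 gene Ccnd2 at 0.69 ± 0.14 (edgeR adjusted p = 1.2e-05, 2.7e-05 and 7.4e-05). Without the libraries of poor capture 7 of the 19 were higher and 1 was lower. Of 12 further p53 targets 4 were higher and 1 was lower in WTD mice, among them Plk2 at 0.75 ± 0.15, Btg2 at 1.04 ± 0.20 and Phlda3 at 1.54 ± 0.36 (edgeR adjusted p = 2.7e-05, 3.6e-05 and 0.00043), and none was called under atorvastatin. Without the libraries of poor capture 4 of the 12 were higher and 0 lower in WTD mice.

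Markers of other cell types moved with the diet too. The counts of markers below, all in WTD against Chow mice, stand beside 17.5% of all tested genes higher and 16% lower. The summed level of 8 macrophage markers ranged from 292 to 475 CPM in Chow, 1264 to 2229 CPM in WTD and 990.0 to 1621 CPM in WTD+atorvastatin mice, with 6 of 7 tested markers higher in WTD than in Chow mice and Itgam at 0 in every mouse. Of 5 bile duct markers all 5 were higher, with sums from 77.2 to 156 CPM in Chow, 182 to 841 CPM in WTD and 215 to 597 CPM in treated mice, and of 7 stellate markers 4 were higher, with sums from 123 to 414, 655 to 1923 and 531 to 1931 CPM. The 6 hepatocyte markers were present at very high levels in every group but all 6 were lower in WTD than in Chow mice, with median sums of 115019, 61897 and 100038 CPM in Chow, WTD and WTD+atorvastatin mice. None of 8 T and NK cell markers was called, with sums no higher than 26.6 CPM in any mouse. Of 5 B cell markers 1 was lower in WTD than in Chow mice, where the summed level was 1413 CPM in mouse AZ1 and at most 119 CPM in any other mouse of the series. Of 6 endothelial markers 2 were higher and 2 lower, of 3 tested neutrophil markers 3 were higher, and of 5 erythroid markers 2 were higher. Without the libraries of poor capture no B cell marker was called in WTD against Chow mice. Then 2 of 4 tested neutrophil markers, 5 of 7 stellate markers and 3 of 6 endothelial markers were higher. The part of these cell types in the members' differences was not tested.

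Whether the members rise and fall together from mouse to mouse was examined within each group. Over the 780 pairs of members the median Spearman rho of log2 CPM was 0.27 in Chow, 0.31 in WTD and 0.50 in WTD+atorvastatin mice, beside 0.018, 0.003 and 0.003 over pairs of tested genes. Without the libraries of poor capture the medians were 0.39, 0.32 and 0.54. Among the mitotic, turnover and spindle genes alone they were 0.33, 0.48 and 0.66 with all libraries, and among replication and nucleotide genes 0.31, 0.15 and 0.33. These medians were 0.46, 0.47 and 0.72, and 0.39, 0.25 and 0.37, without the libraries of poor capture. These are descriptions, since the points share libraries and their depth.

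The median rho of the other 23 mitotic, turnover and spindle genes with Mki67 was 0.45 in Chow, 0.63 in WTD and 0.79 in WTD+atorvastatin mice, and the highest was 0.95 for Ccna2 in treated mice. That of the 7 fork genes was 0.53, 0.30 and 0.41. In Chow mice single values moved in both directions without the libraries of poor capture. Top2a went from 0.64 to 0.29 and Cenpf from 0.45 to -0.07, while Aurkb went from 0.21 to 0.79. The differences between the groups were not tested. Tk1 stood at -0.30, -0.06 and -0.46, the lowest value of the 4 nucleotide genes in the Chow and treated groups, but in WTD mice its rho was 0.55 without the libraries of poor capture.

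**Figure D5:**
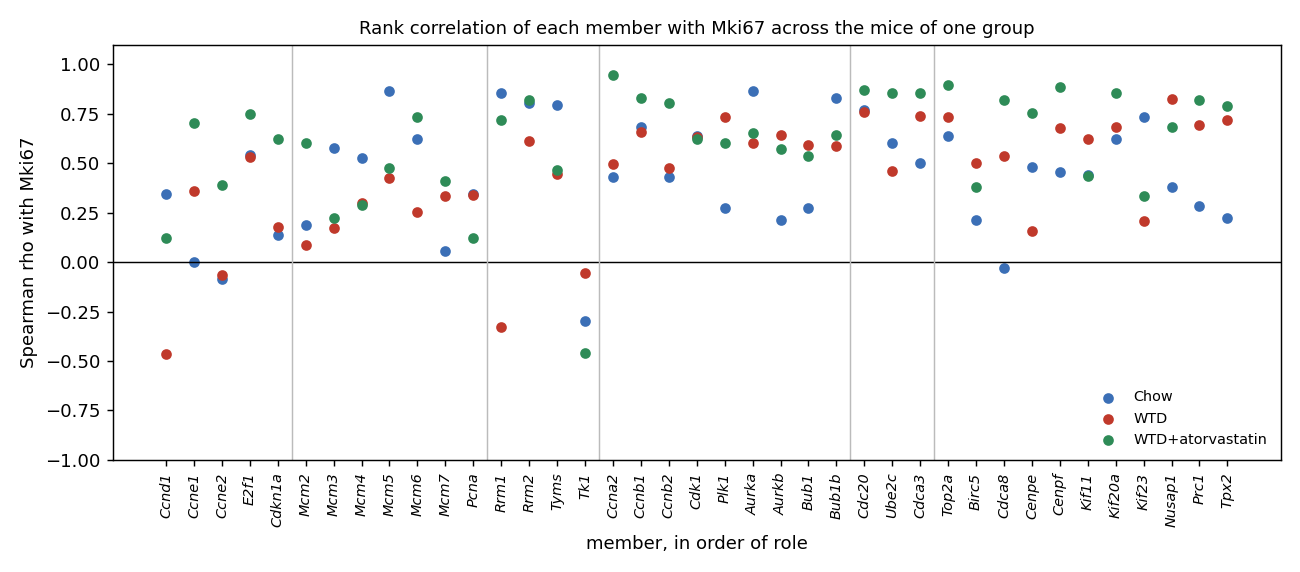
Each column is 1 member, in order of role, and the 3 points give its Spearman rho with Mki67 over the 10 Chow, 16 WTD and 16 WTD+atorvastatin mice. Most mitotic and spindle genes lie above 0.5 in the WTD and WTD+atorvastatin groups, while Tk1 lies below 0 in all 3, though not in WTD mice without the libraries of poor capture, where its rho is 0.55.

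Of 15 relations of Mki67 tested within groups, 4 passed a Benjamini-Hochberg adjusted p of 0.05 over the 15 (two-sided permutation test, 100000 permutations, log2 CPM). Mki67 and Top2a had Pearson r = 0.91 and Spearman rho = 0.90 in treated mice (permutation p = 1e-05 for both, the smallest the permutations can give, adjusted p = 0.00015) and r = 0.88 without the 2 mice farthest from the median. In WTD mice they had r = 0.79 and rho = 0.74 (permutation p = 0.0002 and 0.0016, adjusted p = 0.0015 and 0.011) and r = 0.63 without those 2 mice. Mki67 and Mcm5 had r = 0.88 and rho = 0.87 in Chow mice (permutation p = 0.0011 and 0.0021, adjusted p = 0.0057 and 0.011), and r = 0.67 without the 2 mice or 0.73 in the 7 libraries of good capture. Mki67 and Cdkn1a had r = 0.62 and rho = 0.62 in treated mice (permutation p = 0.0099 and 0.011, adjusted p = 0.037 and 0.042), and r = 0.54 without the 2 mice. In the last 3 relations r no longer passed without those mice (permutation test, adjusted p = 0.11, 0.19 and 0.15), where both the number of mice and the range of Mki67 are smaller by construction. In the 15 treated libraries of good capture Mki67 and Cdkn1a had r = 0.68 and rho = 0.73, and Gen22 to Gen25, whose scaling factors are given above with Cdkn1a, are among them. With the macrophage marker Cd68, Mki67 had r = -0.19, 0.23 and 0.48 in Chow, WTD and treated mice, none of which passed (permutation p = 0.6, 0.4 and 0.061).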

How the data were processed

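Liver RNA from 42 mice was sequenced as strand-specific libraries from oligo-dT selected mRNA. Per the labels and the study's methods, the authors trimmed reads with Trimmomatic, aligned them to GRCm38 with STAR 2.5 and deposited raw counts per gene from HTSeq 0.6.1p1. DESeq2 is also named in the submitters' processing notes, and whether the counting used strand is not given in the sources used here. Alignment and counting set which reads are shared between paralogs, pseudogenes and overlapping genes. The lines HTSeq adds for unassigned reads were left out of totals. Reads without a feature averaged 2.28%, ambiguous reads 5.95% and reads with several alignments 4.68% of all counts listed.

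Totals of 15661381 to 36224054 counts per library set the counting precision, and intervals cover the spread between mice. Weak genes were dropped by edgeR's filterByExpr at a minimum count of 10 and a minimum total of 15, and the rest were scaled by TMM and fitted over all 42 mice with edgeR 4.0.16 (robust quasi-likelihood, R 4.3.3), with group as the only term and Benjamini-Hochberg adjustment over all tested genes. A call is an adjusted p under 0.01. Libraries were said to be of poor capture where over 20% of genes with a mean of 1 to 2 CPM in their group, from totals without scaling, had 0 counts. Levels are CPM from TMM-scaled totals, and log2 CPM has a prior count of 2. Relations across mice used two-sided permutation tests with 100000 permutations. As alternatives, the fit was repeated with DESeq2 1.42.0, with voom and weights per sample in limma 3.58.1, with RLE scaling, no filter, only the groups compared, no robust estimation, omission of the libraries of poor capture, their missing share as a covariate, other thresholds, and omission of each mouse. The scripts were tested on simulated data. Other calculations used Python 3.11.15 with scipy 1.17.1.

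All 40 members are named by rule, with the 3 genes of smallest p per comparison considered from each other list and markers given as sums. The members and lists were chosen with earlier results of these data known. Nothing in the labels gives batches or dates. All Chow mice have names that begin with AZ, and all mice of both WTD arms have names that begin with Gen. What these prefixes stand for is not given in the sources used here. Any difference they mark could not be told apart from that between the Chow and WTD groups.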

Additional observations from a re-analysis of the deposited data

Results flagged for a closer look

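In the Chow group 5 of the 40 members had a highest value far from the next by Dixon's test at the 95% level for 10 mice, a test that flags about 1 in 20 groups by chance. They were Mcm5 at 14.7 CPM, Mki67 at 36.5 CPM and the spindle midzone gene Prc1 at 21.0 CPM, all in mouse AZ5, where the next mouse had 7.81, 23.4 and 11.1 CPM. The kinesin gene Kif11 stood at 13.7 CPM in AZ2 against 6.03 CPM in the next mouse, and Ccne1 at 2.84 CPM in AZ10 against 1.25 CPM. AZ5 and AZ2 are libraries of poor capture, with 43.1% and 57.3% of weak genes missing, and AZ10 is not, with 2.51%. The part of capture in these values was not tested.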

How the results depend on the processing

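In WTD against Chow mice 9 members were called, and 7 to 13 under the alternative models, with 4 where a log2 fold change of at least 1 was also asked. Leaving out each mouse gave 7 to 10. In WTD+atorvastatin against WTD mice the count was 1, with 2 under limma-voom and without the libraries of poor capture (Ccnd1 and Tk1), 0 with a log2 fold change of at least 1, and 1 without any single mouse. At an unadjusted p under 0.05 it was 3. Against Chow mice the count of 5 became 8 without the libraries of poor capture, 8 at an adjusted p under 0.05 and 1 with a log2 fold change of at least 1, and 4 to 6 without single mice. In the 3 comparisons, in this order, limma-voom called 27.5%, 5% and 17.5% of members, beside 41.7%, 20% and 31.9% of all genes. Without the libraries of poor capture it was 32.5%, 5% and 20% of members, beside 37.2%, 10.5% and 29% of all genes. DESeq2 called 25%, 2.5% and 12.5% of members, beside 30.6%, 9.57% and 24.2% of all genes. The shares of all genes at the other thresholds, an unadjusted p under 0.05 among them, are not given here. Mcm5 lost its call against Chow in WTD mice with no filter, with only the 2 groups compared and with the missing share as a covariate, Mcm3 with only the 2 groups compared, Tk1 in treated mice with no filter and with the covariate, and Mcm5 in treated mice with only the 2 groups compared. Rrm1 gained a call in WTD against Chow mice with DESeq2, limma-voom and RLE scaling, and Mcm7 with limma-voom. No called member changed direction under the 8 alternative models or without any single mouse. For Mki67, r with Top2a was 0.81 in Chow mice on the CPM scale, where it passed, and 0.63 in WTD mice without the 2 farthest mice, where it did not. With Mcm5 it was 0.67 in Chow mice without the 2 farthest and 0.73 without poor capture, neither passing, and 0.64 in WTD mice on the CPM scale, passing. With Cdkn1a in treated mice it was 0.57 on the CPM scale and 0.54 without the 2 farthest, neither passing. Its sign turned, without passing in either direction, with Cdkn1a in Chow (-0.078) and WTD mice (-0.25, and -0.39 without poor capture), with Ccnd1 in treated mice (-0.015) and with Cd68 in WTD mice (-0.082, and -0.41 without poor capture). The median pairwise rho in Chow mice was 0.39 without poor capture. The causes were not tested. No paired analysis was possible because the replicate numbers only name mice in accession order and pair no mice across groups.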

Other observations

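One relation was chosen after its values were seen, among 6 computed for Tk1. In WTD+atorvastatin mice Tk1 and Cdkn1a, the thymidine kinase and p21 genes, had Pearson r = -0.88 and Spearman rho = -0.80 on the log2 CPM scale (two-sided permutation p = 2e-05 and 0.00026, Benjamini-Hochberg adjusted over the 6 p = 0.00012 and 0.0016). Since the relation was chosen on these same values, and the adjustment over 6 does not cover that choice, the p-values are not a test of it. It was r = -0.83 without the 2 mice farthest from the median and r = -0.89 without the library of poor capture. The 4 treated mice highest in Cdkn1a, Gen22 to Gen25 at 33.3 to 64.6 CPM, held the 4 lowest Tk1 values of their group, 16.7 to 25.5 CPM, against 28.5 to 54.1 CPM in the other 12, within which r was -0.63. These 4 libraries also had TMM scaling factors of 1.05 to 1.11, against 0.890 to 0.980 in 10 of the other 12. Gen28 and Gen36 had factors of 1.09 and 1.02, with Cdkn1a at 21.6 and 23.8 CPM and Tk1 at 43.5 and 33.7 CPM. The part of the scaling factors in the relation was not tested. In Chow and WTD mice r was -0.23 and -0.44 (permutation p = 0.51 and 0.083). The difference between the groups was not tested.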
